A study of Mus musculus with 3 samples.

Results

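Autophagy encloses cytoplasm in a double membrane and delivers it to the lysosome, and the genes examined here encode its core machinery and the receptors that pick its cargo. They are 39 named genes, found by their gene symbol in the transcript tables, out of 55536 annotated genes in the series. Macrophages were grown from the bone marrow of C57BL/6J mice, and total RNA of their cytosolic fraction was sequenced after ribosomal RNA had been depleted. All 3 libraries belong to 1 group, cells at 0 min of a time course with 100 ng/ml lipid A. Lipid A is the membrane anchor of bacterial lipopolysaccharide and is sensed by TLR4. There was thus no other time point to compare with, and the values below describe the machinery at this point only. The labels give each library its own biosample and all 3 the same donor label, and sex and age were not collected. The labels also give each library a biological replicate number. Whether they are separate animals or separate cultures is not stated. Each SD and p-value thus rests on 3 samples only, and part of the spread may be technical.

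A kinase complex around ULK1 starts the process, a phosphatidylinositol 3-kinase complex marks the membrane, and ATG2, ATG9A and VMP1 help to supply it with lipid. A ubiquitin-like conjugation system then attaches proteins of the ATG8 family, the LC3 and GABARAP proteins, to the growing membrane, where cargo receptors bind them. In macrophages this machinery removes damaged organelles and intracellular bacteria, and parts of it also act on phagosomes.

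Expected counts, the authors' estimates of reads per gene, summed to 26318761, 41897257 and 56290298 in replicates 1, 2 and 3. The macrophage markers were present, with 8 of 8 at a TPM (transcript abundance scaled for length and depth, with the same total in each library) of at least 1 in all 3 libraries. Their summed level lay between 5120 and 7315 TPM. All 3 markers of each of 8 other lineages (T, B, natural killer, erythroid, megakaryocyte, mast, dendritic and fibroblast) stayed below 1 TPM, as did 4 of 5 neutrophil markers, with Ngp at 1.83 ± 0.506 TPM. Replicate 3 stood apart in nuclear RNA: 6 transcripts that stay in the nucleus, Malat1 and Neat1 chief among them, summed to 246, 224 and 1111 TPM in replicates 1, 2 and 3. Nuclear protein-coding genes held 25.8%, 21.4% and 20.8% of all TPM in the same libraries, so a TPM of such a gene comes out higher in replicate 1 for the same share of messenger RNA. In these bulk samples, fewer cells of a type and less RNA per cell cannot be told apart.

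All 39 autophagy genes reached 1 TPM in all 3 libraries. Over all genes 17.0% did so, and over protein-coding genes 41.0%. At 5 TPM, 26 of the 39 passed in all 3 libraries, against 23.9% of protein-coding genes. Their median level was 8.05 TPM, against 7.19 TPM for the 9023 protein-coding genes that reached 1 TPM in all 3 libraries, and 22 of the 39 lay above that value. Most of the machinery thus lay near the middle of the expressed genes, and a few members stood far above the rest. The highest gene, Gabarap, exceeded the lowest, Atg16l2, 145-fold by mean TPM. With the authors' posterior mean TPM and with the kallisto-format TPM, Atg10 was the lowest instead, and Gabarap exceeded it 109-fold and 88.8-fold. Mean levels were above 20 TPM for 8 genes, between 5 and 20 TPM for 20, and below 5 TPM for 11. The smallest expected count was 140, for Atg10 in replicate 1, so every gene rested on at least that many reads.

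The 39 genes together held 860, 746 and 695 TPM in replicates 1, 2 and 3, or 767 ± 84.3 TPM (SD, n = 3). The 5 ATG8 genes took 42.9% of that sum and the 5 cargo receptors 26.5%. The 10 conjugation genes took 8.72%, the 6 genes of the phosphatidylinositol 3-kinase complexes 8.19%, the 6 lipid supply genes 6.15%, the 5 genes of the ULK1 complex 5.03% and the 2 fusion genes 2.53%. The 10 genes for ATG8 proteins and receptors thus held most of the sum, and the genes for enzymes, scaffolds and membrane proteins the smaller part. Much of this came from Gabarap at 232 TPM and Sqstm1 at 121 TPM. Map1lc3a at 6.51, Calcoco1 at 7.79 and Optn at 9.69 TPM lay near the median of the 39, 8.05 TPM. When the 39 genes were ranked by mean TPM, 16 of the 38 neighbouring pairs kept the same order in all 3 libraries. For 6 pairs the ranges did not overlap: Gabarap above Sqstm1, Sqstm1 above Gabarapl1, Nbr1 above Snap29, Atg3 above Ulk2, Atg14 above Atg4d, and Atg10 above Atg16l2. The last of these turned round with posterior mean TPM, at 2.09 for Atg10 and 2.52 for Atg16l2, and with kallisto-format TPM, at 0.989 and 1.05. In 10 further pairs the order held within each library while the ranges overlapped, and 22 pairs had no constant order.

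**Figure D1:**
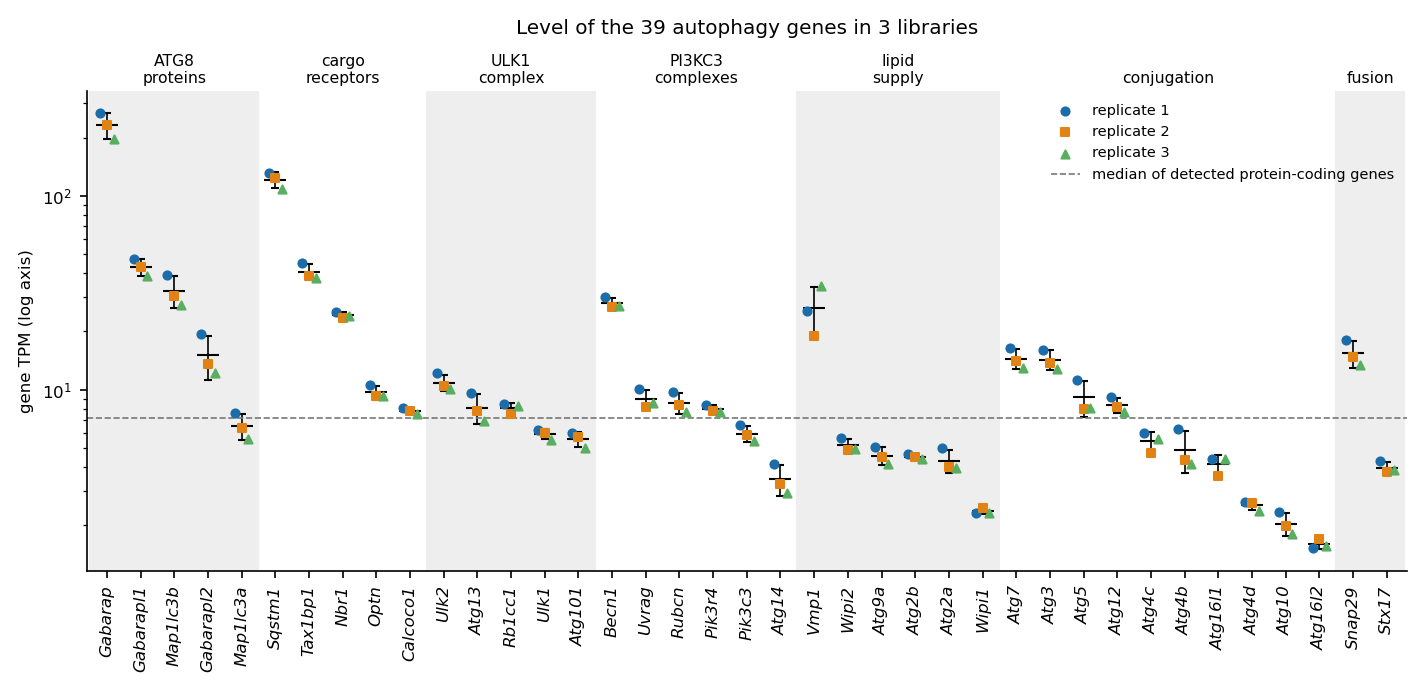
Gene TPM (log axis) of the 39 autophagy genes in replicates 1, 2 and 3, grouped by role and ordered by mean within a role; the black bar is the mean with its SD (n = 3). The dashed line is the median of detected protein-coding genes, 7.19 TPM. Gabarap and Sqstm1 lie above 100 TPM in every library, and Atg16l2 lies below 2 TPM.

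The ATG8 proteins are small ubiquitin-like proteins that the protease ATG4 trims back to a glycine, which is then joined to phosphatidylethanolamine in the membrane. Mice have LC3 proteins, here from Map1lc3a and Map1lc3b, and GABARAP proteins, from Gabarap, Gabarapl1 and Gabarapl2. The last 36 coding bases of Map1lc3a and the 3 GABARAP genes, read from the GENCODE M21 transcripts on mm10 with the stop codon included, show where the trimming site lies. Capitals mark the codon of the last glycine.
Map1lc3a: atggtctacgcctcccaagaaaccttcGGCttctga
Gabarap: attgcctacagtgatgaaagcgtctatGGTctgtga
Gabarapl1: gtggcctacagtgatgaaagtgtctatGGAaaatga
Gabarapl2: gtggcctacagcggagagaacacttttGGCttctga
In each of these genes 1 codon stands between this glycine and the stop. The glycine is codon 120 in Map1lc3a and codon 116 in the 3 GABARAP genes. Over their coding sequences, Gabarap and Gabarapl1 were identical at 74.6% of aligned bases. Gabarapl2 matched Gabarap at 61.5% and Gabarapl1 at 63.5%, and Map1lc3a matched the GABARAP genes at 48.8% to 53.3%. These sequences lie on the plus strand at chr2:155277602-155277637, chr11:69994489-69994524, chr6:129541132-129541167 and chr8:111952370-111952405 in the order shown.

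Gabarap had the highest level of the 39 genes, with 269, 231 and 197 TPM in replicates 1, 2 and 3 (232 ± 35.9, SD, n = 3). Its lowest library still exceeded every library of every other member. Gabarapl1 followed among the ATG8 genes with 47.3, 43.1 and 38.5 TPM (43.0 ± 4.39). Map1lc3b, the LC3 gene whose protein is commonly used to count autophagosomes, had 39.2, 30.4 and 27.4 TPM (32.4 ± 6.12). Its range met that of Gabarapl1, so the order of these genes was not clear of the spread, although Gabarapl1 was higher within each library. The span of another gene typed protein-coding, Gm20388, covers Map1lc3b on the same strand, and Gm20388 was given 10.6 TPM. Whether the 2 genes share exons was not examined, so it is open whether reads were split between them. Gabarapl2, also known as GATE-16, had 19.4, 13.6 and 12.2 TPM (15.1 ± 3.83), and Map1lc3a had 7.58, 6.39 and 5.56 TPM (6.51 ± 1.02). The ranges of Gabarapl2 and Map1lc3a were apart from each other and from those of the other 3 ATG8 genes. All 5 ATG8 genes were highest by TPM in replicate 1, as were 82.6% of detected protein-coding genes, and lowest in replicate 3. After TMM scaling of the counts, which corrects for the make-up of each library, replicate 3 was again the lowest for all 5, with Gabarap at 422, 421 and 354 CPM in replicates 1, 2 and 3. CPM is a count relative to the scaled size of its library, with no correction for gene length.

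The difference between Gabarap and its paralogs was larger than the spread between libraries in every case. On the log2(TPM + 1) scale, Gabarap minus Gabarapl1 was 2.40 ± 0.08, Gabarap minus Gabarapl2 3.87 ± 0.14, and Gabarap minus Map1lc3b 2.81 ± 0.07 (SD, n = 3 libraries each). Map1lc3b minus Map1lc3a was 2.14 ± 0.07, and Gabarapl2 minus Gabarapl1 was -1.47 ± 0.20. Each of these had the same sign in all 3 libraries, and the exact two-sided sign-flip test gave p = 0.25, the smallest value that 3 libraries allow, so no pair could pass 0.05.

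The cargo receptors bind ubiquitin or an organelle on one side and an ATG8 protein on the other. Sqstm1, which encodes p62 and sits at chr11:50199366-50210827, had 131, 123 and 108 TPM (121 ± 11.6). Tax1bp1, a receptor that also works with A20 to dampen NF-kB signalling, had 44.9, 38.8 and 37.8 TPM (40.5 ± 3.87). Nbr1, a relative of p62 that acts on protein aggregates and peroxisomes, had 25.3, 23.6 and 24.1 TPM (24.4 ± 0.847). The ranges of these 3 receptors did not overlap, so Sqstm1, Tax1bp1 and Nbr1 kept this order beyond the spread. Optn, a receptor for bacteria and damaged mitochondria that the kinase TBK1 phosphorylates, had 10.6, 9.24 and 9.25 TPM (9.69 ± 0.777). Calcoco1, a receptor for the endoplasmic reticulum and Golgi, had 8.02, 7.81 and 7.54 TPM (7.79 ± 0.241). Optn lay above Calcoco1 in every library, and both were close to the median of detected protein-coding genes.

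Sqstm1 exceeded each of the other 4 receptors in all 3 libraries (exact two-sided sign-flip p = 0.25 for each pair). Sqstm1 minus Tax1bp1 was 1.55 ± 0.08 on the log2(TPM + 1) scale, Sqstm1 minus Nbr1 2.26 ± 0.12, Sqstm1 minus Optn 3.51 ± 0.09 and Sqstm1 minus Calcoco1 3.79 ± 0.10 (SD, n = 3). Tax1bp1 minus Calcoco1, a pair of related genes, was 2.23 ± 0.10. The third gene of that family, Calcoco2, which encodes the receptor NDP52 in humans, was listed at 0 TPM in all 3 libraries.

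The ULK1 complex had no member above 12.2 TPM in any library. Its 2 alternative kinases were unequal. Ulk2 had 12.2, 10.5 and 10.1 TPM (10.9 ± 1.09), and Ulk1 had 6.20, 5.99 and 5.51 TPM (5.90 ± 0.354). Ulk2 was therefore the higher kinase gene in each library, and Ulk1 minus Ulk2 was -0.79 ± 0.08 on the log2(TPM + 1) scale (SD, n = 3, exact two-sided sign-flip p = 0.25). The scaffold Rb1cc1, which encodes FIP200, had 8.05 ± 0.465 TPM, and Atg13, which links kinase and scaffold, had 8.09 ± 1.39 TPM. These 2 genes did not differ beyond the spread: their difference changed sign between libraries (exact two-sided sign-flip p = 1.0). Atg101, which stabilises ATG13, had 5.57 ± 0.474 TPM and was below Atg13 in all 3 libraries.

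Of the phosphatidylinositol 3-kinase complexes, Becn1 had by far the highest gene level, 30.1, 26.8 and 26.9 TPM in replicates 1, 2 and 3 (28.0 ± 1.90). Beclin 1 is the regulatory subunit shared by the complexes. This level rests on transcripts that are not annotated as coding: protein-coding isoforms of Becn1 held 3.04 ± 0.561 TPM, and the transcripts are described with the other isoforms. The catalytic subunit Pik3c3, or VPS34, had 5.94 ± 0.570 TPM, and the subunit Pik3r4, or VPS15, 7.93 ± 0.384 TPM. Pik3c3 lay below Pik3r4 in all 3 libraries, with Pik3c3 minus Pik3r4 at -0.37 ± 0.06 on the log2(TPM + 1) scale (SD, n = 3, exact two-sided sign-flip p = 0.25). Becn1 minus Pik3c3 was 2.06 ± 0.05 on that scale by gene TPM. By protein-coding isoforms alone the order of these means was the opposite, with Becn1 at 3.04 ± 0.561 TPM and Pik3c3 at 5.80 ± 0.787 TPM (SD, n = 3). The means of Pik3c3 and Pik3r4 also changed order by this measure, with Pik3r4 at 4.70 ± 0.453 TPM. Retained-intron transcripts held 40.9% of the Pik3r4 TPM.

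ATG14 directs this kinase to the sites where autophagosomes form, and UVRAG takes its place in a complex that acts on endosomes and later steps. Uvrag had 10.1, 8.16 and 8.52 TPM (8.93 ± 1.03), and Atg14 had 4.16, 3.28 and 2.93 TPM (3.46 ± 0.634). The ranges were far apart, and Uvrag minus Atg14 was 1.16 ± 0.10 on the log2(TPM + 1) scale (SD, n = 3, exact two-sided sign-flip p = 0.25). Rubcn, whose product binds the UVRAG complex, restrains autophagy and is needed for LC3-associated phagocytosis, had 8.60 ± 1.07 TPM. It did not differ from Uvrag beyond the spread, and the sign changed between libraries (exact two-sided sign-flip p = 0.5).

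Among the genes for the membrane source, Vmp1 stood out in level and in spread. Vmp1 encodes a lipid scramblase of the endoplasmic reticulum and lies at chr11:86583865-86683836. It had 25.4, 19.0 and 34.5 TPM (26.3 ± 7.79). Replicate 3 was the highest and replicate 2 the lowest, whereas 35 of the 39 genes were highest by TPM in replicate 1. Wipi2, which reads phosphatidylinositol 3-phosphate and recruits ATG16L1, had 5.17 ± 0.415 TPM, and its relative Wipi1 had 2.37 ± 0.0808 TPM. Wipi2 was above Wipi1 in each library, by 0.87 ± 0.12 on the log2(TPM + 1) scale (SD, n = 3, exact two-sided sign-flip p = 0.25). The lipid transfer genes Atg2a and Atg2b had 4.32 ± 0.581 and 4.50 ± 0.137 TPM and changed order between libraries (exact two-sided sign-flip p = 0.5). Atg9a, the scramblase of the vesicles that seed the membrane, had 4.57 ± 0.477 TPM.

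The conjugation genes ran from 14.5 to 1.60 TPM and included the 2 lowest of the 39. Atg7, the E1-like enzyme that activates both ATG8 proteins and ATG12, had 14.5 ± 1.75 TPM, and Atg3, the E2-like enzyme for ATG8 proteins, had 14.3 ± 1.66 TPM. Atg10, the E2-like enzyme for ATG12, had 2.04 ± 0.274 TPM. Atg3 exceeded it by 2.32 ± 0.03 on the log2(TPM + 1) scale (SD, n = 3, exact two-sided sign-flip p = 0.25), the smallest spread among the pairs compared. Atg5 and Atg12, whose products are joined to each other, had 9.15 ± 1.89 and 8.31 ± 0.739 TPM, and their order changed between libraries (exact two-sided sign-flip p = 0.5). Atg16l1, which places the ATG12-ATG5 conjugate on the membrane, had 4.41, 3.59 and 4.42 TPM (4.14 ± 0.476). Its paralog Atg16l2 had 1.53, 1.70 and 1.57 TPM (1.60 ± 0.0889), the lowest of the 39 by this estimate. Atg16l1 minus Atg16l2 was 0.98 ± 0.19 on the log2(TPM + 1) scale (SD, n = 3, exact two-sided sign-flip p = 0.25). The authors' posterior mean put Atg16l2 at 2.52 TPM, above Atg10 at 2.09 TPM, and its TPM lay outside its own credibility interval in all 3 libraries.

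The ATG4 proteases trim new ATG8 proteins and also release them from membranes. Atg4c had 5.42 ± 0.650 TPM, Atg4b, which encodes the most active of them in mammals, 4.92 ± 1.19 TPM, and Atg4d 2.54 ± 0.139 TPM. Atg4b and Atg4c changed order between libraries (exact two-sided sign-flip p = 0.5). Atg4d lay below both in all 3 libraries, with Atg4b minus Atg4d at 0.72 ± 0.24 and Atg4d minus Atg4c at -0.85 ± 0.17 on the log2(TPM + 1) scale (SD, n = 3, exact two-sided sign-flip p = 0.25 each). Of the fusion genes, whose products join the autophagosome to the lysosome, Stx17 had 3.97 ± 0.263 TPM and its partner Snap29 15.4 ± 2.40 TPM. Stx17 was thus the lower gene, with Stx17 minus Snap29 at -1.72 ± 0.14 on the log2(TPM + 1) scale (SD, n = 3, exact two-sided sign-flip p = 0.25).

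Over all 26 pairs of paralogs and partners, 21 had the same sign in all 3 libraries, and none could reach a p below 0.25. The 5 pairs without a stable order were Atg2a and Atg2b, Atg4b and Atg4c, Rubcn and Uvrag, Rb1cc1 and Atg13, and Atg5 and Atg12. With kallisto-format TPM all 26 pairs had the same sign in all 3 libraries. The mean differences of these 5, first minus second gene, were then 0.08, 0.37, -0.68, 0.45 and 0.14 on the log2(TPM + 1) scale. Several of the pairs share a gene, so they are not independent.

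**Figure D2:**
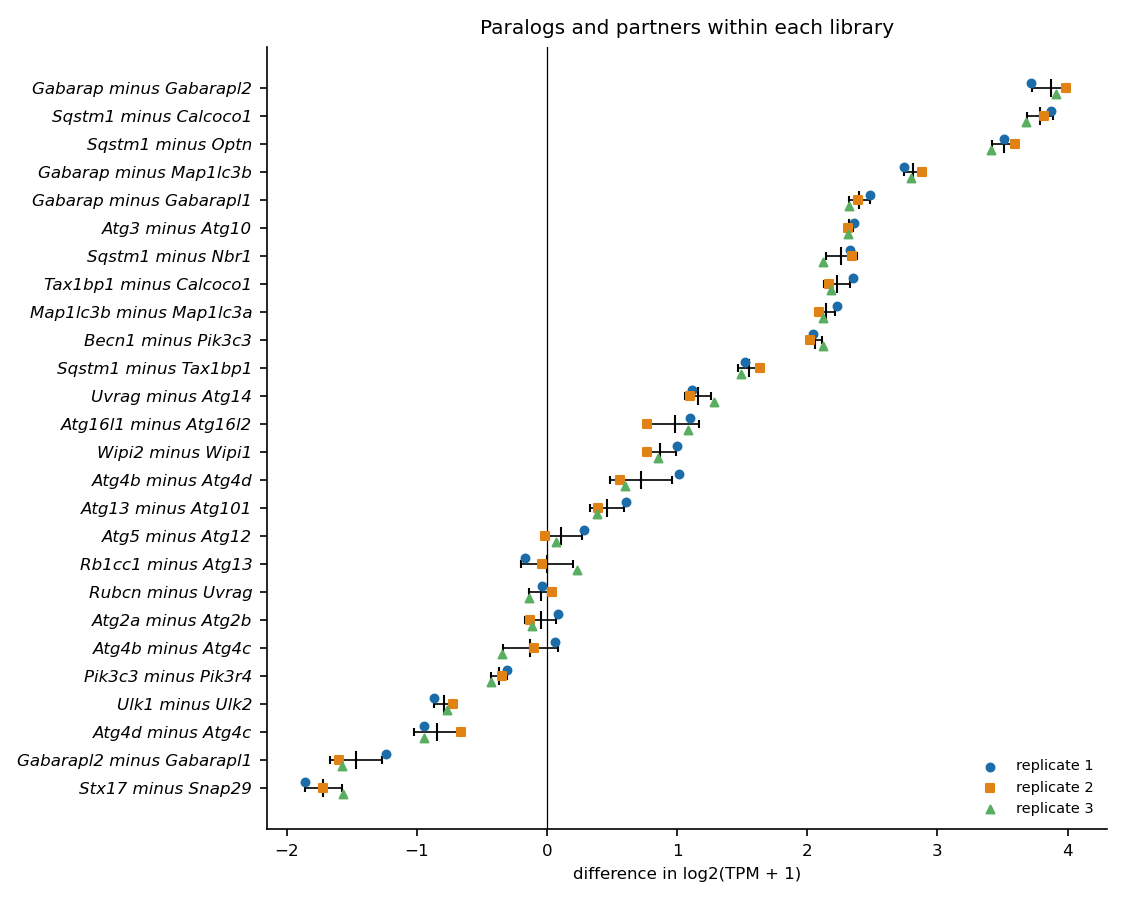
Difference in log2(TPM + 1) between the first and the second gene of 26 pairs in replicates 1, 2 and 3; the black bar is the mean with its SD (n = 3), and a positive value means that the first gene was higher. Gabarap minus Gabarapl2 is the largest at 3.87, and 5 pairs cross 0.

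The spread of the 39 genes between libraries was small. On TMM-scaled log2 CPM, the median SD over the 3 libraries was 0.086 for the autophagy genes and 0.119 over the 12413 genes that passed the filter on low counts, which all 39 did. Without replicate 3 these medians were 0.048 and 0.085. The median biological coefficient of variation estimated by edgeR was 0.0847 for the autophagy genes and 0.109 over all genes that passed. In 34 of the 39 genes the highest library exceeded the lowest by less than 1.2-fold, against 56.5% of all genes that passed. The genes that passed were not limited to protein-coding genes and were not matched to the 39 in level. Optn and Ulk2 varied least, each with an SD of 0.01. Optn had 43.0, 43.4 and 42.9 CPM in replicates 1, 2 and 3, and Ulk2 had 110, 108 and 108 CPM. Becn1 and Tax1bp1 followed, each with an SD of 0.03.

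Only Vmp1 exceeded 1.5-fold between its highest and lowest library, 1 of 39, against 15.9% of all genes that passed, which were not matched in level or type. Vmp1 had 66.3, 59.7 and 109 TMM-scaled CPM in replicates 1, 2 and 3, a 1.83-fold range with an SD of 0.47 on the log2 scale. Without replicate 3 no autophagy gene exceeded 1.5-fold, against 7.92% of all genes that passed the filter in that setting. Atg16l2 had the next largest SD, 0.20, with 6.56, 7.58 and 8.64 CPM, and Wipi1 had 0.18, with 8.65, 11.0 and 10.4 CPM. Replicate 3 was the library with 1111 TPM of nuclear-retained RNA, against 246 and 224 TPM in replicates 1 and 2, and the part of this in the Vmp1 value was not tested.

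After TMM scaling, 13 of the 39 genes were highest in replicate 1, 19 in replicate 2 and 7 in replicate 3. Among all genes that passed the filter the shares were 33.0%, 30.9% and 36.1%. The 7 genes highest in replicate 3 were Vmp1, Atg16l2, Atg16l1, Stx17, Atg4c, Atg4d and Rb1cc1. Replicate 3 was also the lowest library for 22 of the 39 genes, against 35.5% of all genes that passed. A library was not tested against the others, since the labels put all 3 in 1 group. These counts depended on the scaling: with library size alone, 21 genes were highest in replicate 1. The share over all genes was not computed for that scaling.

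**Figure D3:**
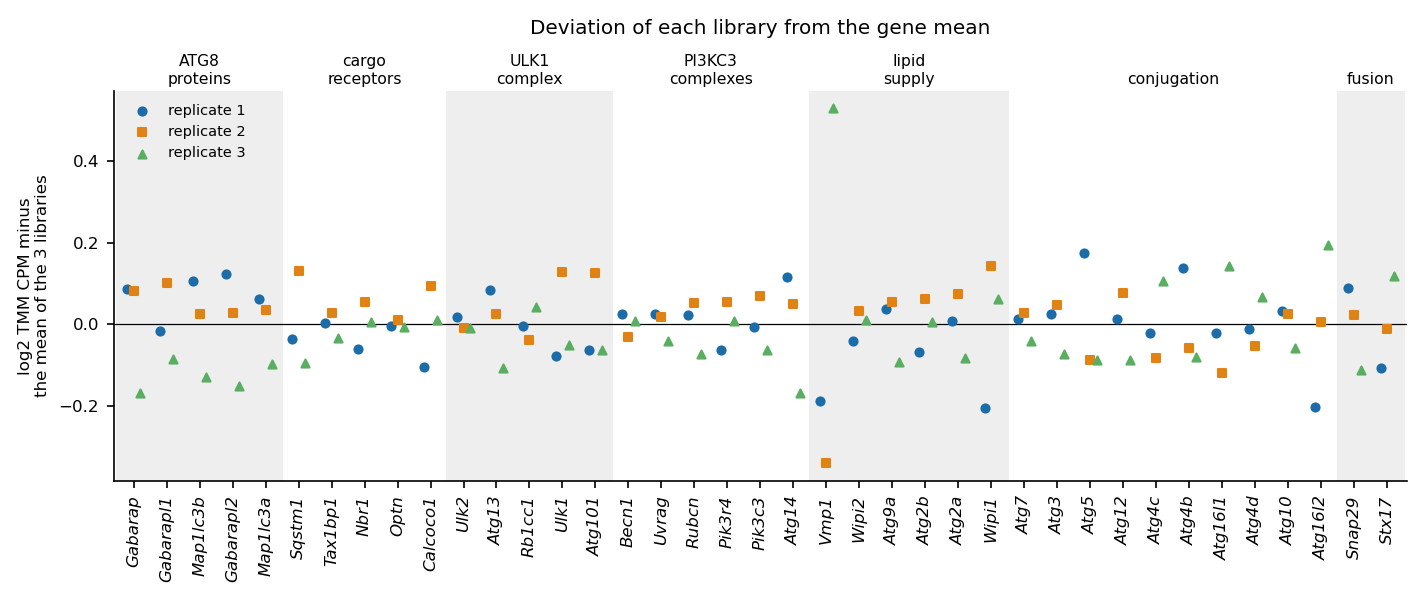
Log2 of TMM-scaled CPM in replicates 1, 2 and 3 minus the mean of the 3 libraries, for the 39 autophagy genes grouped by role; each point is 1 library. Most points lie within 0.2 of the gene mean, and Vmp1 in replicate 3 is the point farthest from 0.

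The tables split each gene into annotated transcripts, 276 for the 39 genes, and not all of these code for protein. Transcripts typed protein-coding held more than 90% of the TPM in 26 of the 39 genes, 50% to 90% in 11, and less than 50% in 2, Becn1 and Atg4d. Among the 9241 protein-coding genes with a mean TPM of at least 1, 72.2% were above 90% and 4.24% under 50%. Becn1 and Atg4d were also the 2 autophagy genes whose leading transcript was not typed protein-coding, against 4.13% of those genes. The median coding share was 95.4% for the autophagy genes and 97.4% for all of them. In replicates 1, 2 and 3 it was 97.0%, 98.0% and 94.4% for the autophagy genes, and 98.5%, 98.6% and 96.0% for all. The coding share was lowest in replicate 3 for 24 of the 39 genes and for 52.2% of all 9241. That is the library with the most nuclear-retained RNA, and the part of this in the coding share was not tested. At the other end, Snap29, Atg5, Gabarapl1, Atg101, Wipi1 and Stx17 had a coding share of 100% in each library. Such tied genes have no lowest library and could not be among the 24. The number of tied genes among the 9241 was not computed, so the 2 shares may not compare alike. For Snap29, Gabarapl1 and Atg101 every annotated transcript is typed protein-coding, so no other share was possible.

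**Figure D4:**
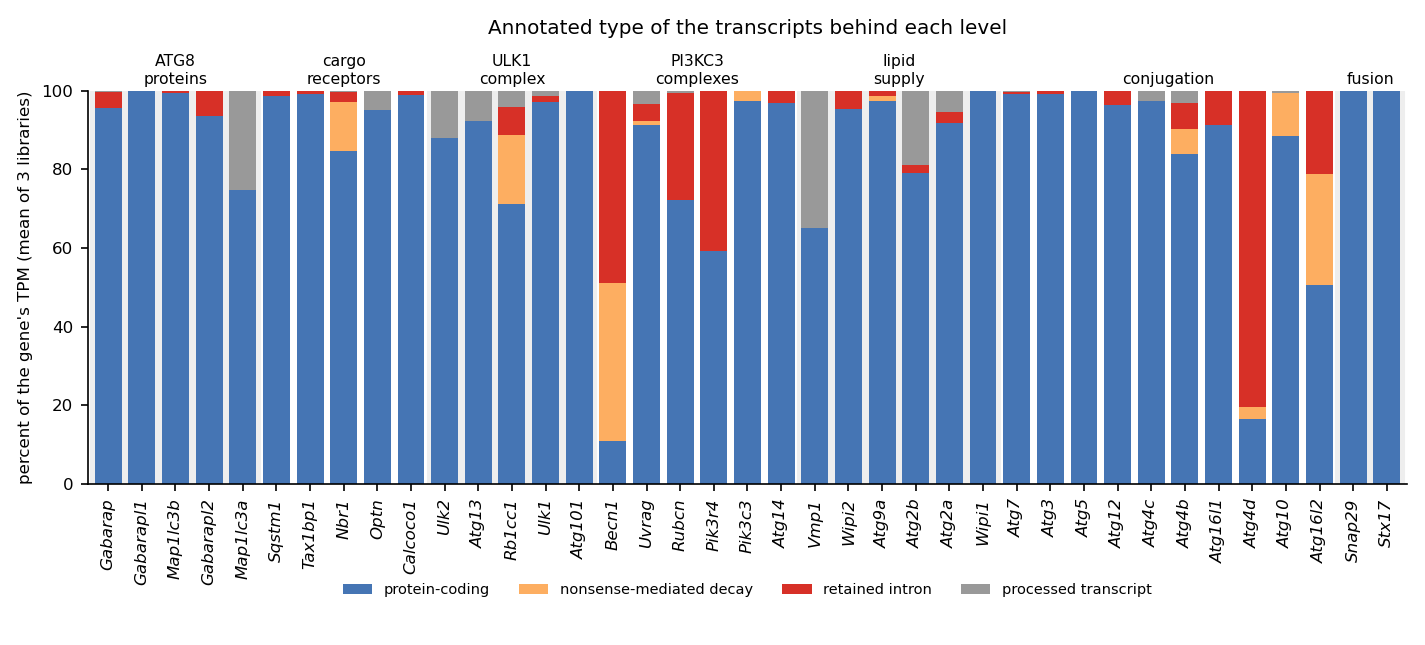
Share of each gene's TPM (percent, mean of 3 libraries) held by transcripts of each annotated type, for the 39 autophagy genes grouped by role. Becn1 and Atg4d are the 2 genes in which protein-coding transcripts hold under 50%, at 10.8% and 16.4%.

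Becn1 had protein-coding transcripts at 12.2%, 10.6% and 9.65% of its TPM in replicates 1, 2 and 3. The mean coding share was 10.8% by TPM, 33.3% by expected counts and 4.39% by kallisto-format TPM. Its leading transcript by TPM was Becn1-211, a retained-intron model of 487 bases, with 12.1, 12.6 and 11.9 TPM. Of these 487 bases, 482 also belong to the coding transcript Becn1-205 and 5 do not. By expected counts, which are not divided by length, Becn1-211 held 9.25% of the gene, against 43.8% of its TPM. The largest share of counts, 42.7%, went to Becn1-201, typed as subject to nonsense-mediated decay, and 32.5% went to the coding Becn1-205. Becn1-201 differs from Becn1-205 by 4 bases at another junction and by an exon that runs 64 bases further, at chr11:101296194-101296257 on the minus strand of mm10, and it lacks 2310 bases of Becn1-205. Capitals mark that extension after the last 20 bases of the shared exon, and the annotation places the stop codon of Becn1-201 at the last 3 bases of the extension.
Becn1 exon extension: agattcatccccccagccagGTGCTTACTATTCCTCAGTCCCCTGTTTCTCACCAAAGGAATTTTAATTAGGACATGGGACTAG
By the TPM of coding transcripts Becn1 was in place 35 of the 39 genes, and by gene TPM in place 6.

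Atg4d had protein-coding transcripts at 17.1%, 11.5% and 20.6% of its TPM, which left the coding Atg4d-201 at 0.450, 0.300 and 0.490 TPM in replicates 1, 2 and 3. By expected counts the coding share was 42.1%, and with kallisto-format TPM 6.87%. Atg4d-201, the only coding model of the gene, is 5951 bases long and runs to chr9:21277772. Atg4d-203 is 2123 bases long and ends at chr9:21273745. TPM is divided by length, and how far the long model lowers the coding TPM was not tested. The retained-intron transcript Atg4d-203 led with 60.7% of the TPM and 52.8% of the counts. It keeps an intron of 77 bases at chr9:21268528-21268604, on the plus strand of mm10, that Atg4d-201 removes, and has 125 further bases, at chr9:21269303-21269427, that Atg4d-201 lacks. Capitals mark the kept intron between the 20 exon bases on each side.
Atg4d retained intron: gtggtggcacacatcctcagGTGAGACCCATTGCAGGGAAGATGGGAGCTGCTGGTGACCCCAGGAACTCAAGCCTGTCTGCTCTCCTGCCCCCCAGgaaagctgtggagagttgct
The end of Atg4d is also overlapped on the other strand by Kri1, at chr9:21273457-21287969 and 6.27 TPM.

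The transcripts of Vmp1 did not vary alike. The coding Vmp1-201 had 12.8, 9.97 and 17.1 TPM in replicates 1, 2 and 3. The processed transcript Vmp1-206 had 4.81, 1.90 and 12.0 TPM, from 159, 115 and 941 expected counts. Both were highest in replicate 3. The range was the wider for Vmp1-206, and it held 21.2% of the gene's TPM on average. Of its 931 bases, 396 lie in an intron of Vmp1-201, at chr11:86586599-86586994 on the minus strand of mm10. Capitals mark the last 40 intron bases, followed by the first 20 bases of the exon.
Vmp1 intron to exon: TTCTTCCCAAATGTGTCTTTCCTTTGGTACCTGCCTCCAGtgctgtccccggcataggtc
The microRNA gene Mir21a lies within the Vmp1 gene and was listed at 0 counts in all 3 libraries, with an effective length of 0, so the tables carry no measure of it.

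**Figure D5:**
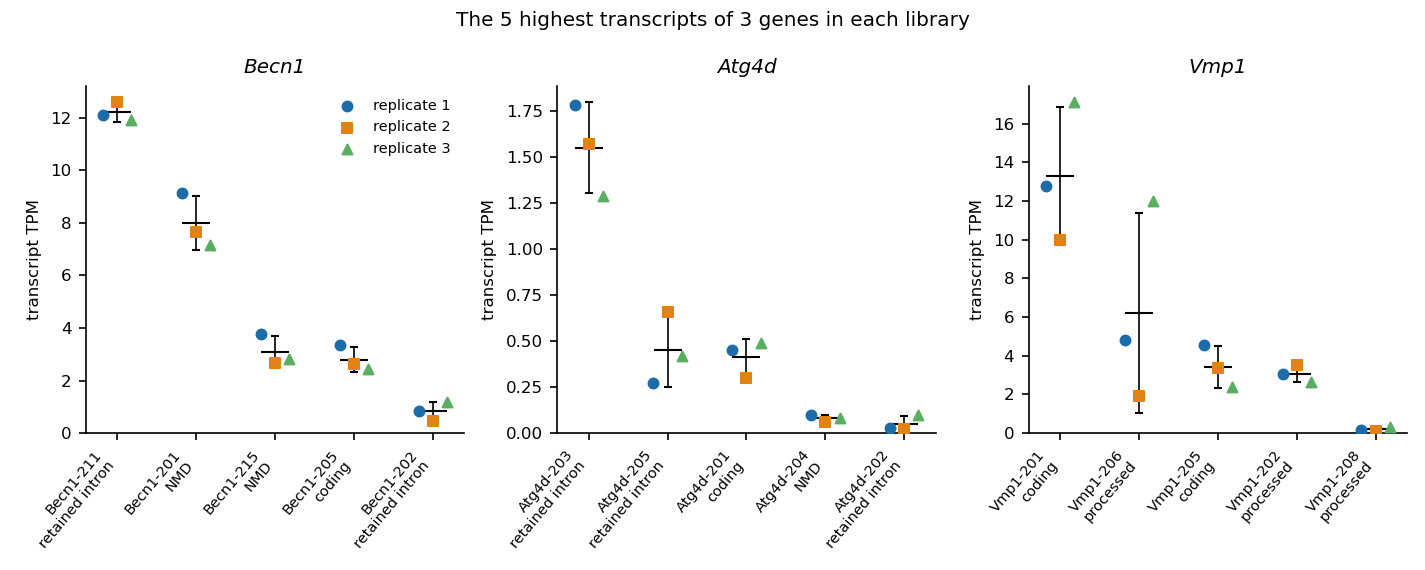
TPM of the 5 highest transcripts of Becn1, Atg4d and Vmp1 in replicates 1, 2 and 3, with the mean and SD in black (n = 3); NMD marks transcripts typed as subject to nonsense-mediated decay. Coding transcripts are not the highest in Becn1 and Atg4d, and Vmp1-201 and Vmp1-206 are highest in replicate 3.

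The remaining genes with a coding share under 75% of the TPM were Atg16l2 at 50.6%, Pik3r4 at 59.1%, Vmp1 at 65.0%, Rb1cc1 at 71.1%, Rubcn at 72.2% and Map1lc3a at 74.7%. By expected counts their coding shares were higher, at 76.9%, 73.7%, 85.7%, 90.4%, 82.0% and 81.2% in the same order. In Pik3r4 and Rubcn the rest of the TPM was almost all retained-intron transcripts, 40.9% and 27.4%. With kallisto-format TPM the coding shares of these 2 genes were 85.9% and 90.1%, and that of Atg16l2 was 39.9%. By RSEM-format TPM the rest of Atg16l2 was divided between retained-intron transcripts at 21.1% and transcripts subject to nonsense-mediated decay at 28.3%. In Map1lc3a a processed transcript held the remaining 25.3%. The coding share of Rb1cc1 was 79.1%, 71.4% and 63.0% in replicates 1, 2 and 3, and that of Atg16l1 was 97.7%, 93.6% and 82.8%, both lowest in replicate 3. An antisense gene that lies over Rb1cc1 had 27, 30 and 246 counts in the same libraries. The small RNA gene Scarna6, which lies within Atg16l1, had 21, 23 and 112 counts.

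Reads of overlapping genes limit some of these values. Another annotated gene overlaps 22 of the 39, on the opposite strand for 18 of them, and a protein-coding gene lies opposite to 10. Among the 9023 detected protein-coding genes, the same holds for 55.8%, 44.2% and 22.1%. Whether the authors counted by strand is not given in the sources used here, so reads of a gene and its partner on the other strand may not be separated. Atg16l2, with 179, 315 and 472 counts in replicates 1, 2 and 3, lies opposite to Fchsd2, with 3314, 4946 and 6152 counts. Expected counts were not whole for 11 of the 39 genes in at least 1 library, within a tolerance of 0.005, and were whole for 28. The matching share over all genes was not computed, so this count does not set the 39 apart.

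The promoters of the autophagy genes were read from RefSeq windows on GRCm38.p6, 250 bases before to 50 after each annotated start, which exist for 33 of the 39 genes as 39 windows. CACGTG, the letters recognised by TFEB and other basic helix-loop-helix factors, was in 5 of the 39 windows, or 12.8%, and in 7.15% of all 32851 windows. These were windows of Atg3, Atg5, Atg7, Atg14 and Rubcn. TGACNNNGC, the core of the element read by NRF2, was in 7 of 39 windows, or 17.9%, and in 12.4% of all windows, searched on both strands. Its genes were Atg13, Map1lc3b, Tax1bp1, Ulk2 and Vmp1, and Vmp1 had it in several of its windows. Counted by gene, each motif was in 5 of the 33 genes with a window. The share by gene over all genes was not computed. The Atg3 window held CACGTG at 2 places, which start 94 and 71 bases before the annotated start, at chr16:45158725-45158773 on the plus strand. Capitals mark the matches.
Atg3 promoter: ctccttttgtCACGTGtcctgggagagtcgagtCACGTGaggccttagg
A match describes letters in a window and is not a measured binding site.

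A list of 41 other autophagy genes gave the setting, and 39 of them were found under the symbol listed. The symbols Tp53inp1 and Tp53inp2 were not matched, so the levels of these genes were not read. Of the genes found, 36 reached 1 TPM and 30 reached 5 TPM in all 3 libraries, with a median of 11.4 TPM. The highest were Ncoa4, the receptor for ferritin, at 150 ± 19.9 TPM (SD, n = 3), and Rab7, the small GTPase of late endosomes, with 159, 131 and 126 TPM in replicates 1, 2 and 3. Tbk1, the kinase that acts on Optn, had 15.7 ± 2.19 TPM. Tmem41b, a scramblase that works beside Vmp1, had 14.2 ± 0.411 TPM. Irgm1, an interferon-induced GTPase linked to autophagy of bacteria, had 49.3 ± 16.1 TPM. Among paralogs of the 39, Atg4a had 3.98 ± 0.484 TPM, Atg9b 0.597 ± 0.188 TPM and Wdr45b, a relative of the WIPI genes, 10.7 ± 1.58 TPM. Bnip3l, a receptor for mitochondria, had 28.6 ± 1.09 TPM, and its relative Bnip3 had 5.09 ± 0.619 TPM.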

How the data were processed

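The genes and lists were chosen with earlier results of these data known. The authors deposited, per the file headers, RSEM-format tables with expected counts (estimated, not always whole) and TPM, with posterior mean TPM and, as a signal per gene, the bounds of the TPM credibility interval, and kallisto-format transcript tables with TPM. Per the labels, values refer to mm10. Aligner, strand setting and versions are not given in the sources used here.

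The deposited TPM was used for levels, and its interval left out the TPM of 4 genes in at least 1 library. Expected counts were rounded and scaled by TMM in edgeR 4.0.16 (R 4.3.3; filterByExpr, prior count 2; factors 1.04, 0.992 and 0.971), tested first on simulated data. DESeq2 1.42.0 size factors were an alternative. A pseudocount of 1 was used for pair differences, tested by exact sign flips. Transcript types, coordinates and sequences came from GENCODE M21. All 39 genes are reported by role, with values per library for ATG8 genes, receptors and those the comparisons turn on. A count of 0 allows up to 3 counts, or 0.114, 0.0716 and 0.0533 CPM in replicates 1, 2 and 3, for counting error only. Protein sequences were not used here, and the coding end of 1 ATG8 gene is not reported here.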

Additional observations from a re-analysis of the deposited data

How the results depend on the processing

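The level of a gene depends on the table and on what TPM is scaled to. The kallisto-format TPM, summed per gene, put the sum of the 39 genes at 339 TPM and their median at 3.40 TPM, and TPM rescaled over protein-coding genes put them at 3385 and 35.5 TPM. The kallisto-format value was 0.352 to 0.689 times the RSEM-format value per gene, and 37 of 39 genes then reached 1 TPM. By levels per gene, no pair difference with a stable sign changed its sign under another table, scaling or pseudocount, or with a library left out. In these settings 21 to 26 of the 26 pairs had 1 sign. Coding transcripts alone were not among these settings. Leaving out each library gave a median SD of log2 CPM between 0.048 and 0.092. In these settings 0 to 1 autophagy genes exceeded 1.5-fold, against 7.92% to 12.0% of all genes kept by the filter. With all 3 libraries, no autophagy gene exceeded a fold of 2. With library size alone, 21 genes were highest in replicate 1. With kallisto-format TPM, 4 genes, not 2, had a coding share under 50%, and Uvrag, at 29.6%, was among them. With shares of counts, or without transcript models under 1000 bases, both chosen after seeing the data, 2 genes were under 50%. The matching share over all genes was not computed for these coding share settings. Nor was it for the counts with kallisto-format TPM, with library size alone or at a fold of 2. Without the filter on low counts, 51.7% of all genes exceeded 1.5-fold. No paired analysis was possible because the libraries form 1 group. The cause of these changes was not tested.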
